A study of Mus musculus with 108 samples.

Results

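The heat shock chaperones of the cytosol and the mitochondrial matrix were followed across single acinar cells of the mouse pancreas. The set held 10 genes, taken by gene symbol: Hspa1a, Hspa1b, Hspa8, Hsp90aa1, Hsp90ab1, Dnajb1, Hspb1, Hsph1, Hspd1 and Hspe1. All 10 were found among the 45195 gene rows, which were measured in each cell. Acinar cells make and secrete the digestive enzymes. They came from untreated male C57BL/6 mice aged 12 weeks and made up 1 group, with no treatment and no named animal. The tissue had been digested with collagenase at 37 °C and the acini dispersed with Accutase before each cell was lysed, and cDNA was made by a modified SMART-seq2 procedure, which reads whole transcripts and has no molecular identifiers. With 1 group and no animal named, the cells counted as 1 sample, so SDs, ranges and correlations below describe the spread between cells, and no test was made over them.

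Heat shock chaperones bind proteins that are unfolded or still folding, and the Hsp70 and Hsp90 machines of the cytosol pass such clients on with the help of co-chaperones. Some family members are made at all times, while others are induced by heat and other protein-damaging stress through the transcription factor Hsf1, which binds inverted repeats of GAA in their promoters. Hspa8, Hsp90ab1, Hspd1 and Hspe1 are called constitutive here and Hspa1a, Hspa1b, Dnajb1, Hspb1, Hsph1 and Hsp90aa1 inducible, from textbook knowledge. Tissue digestion at body temperature is known as a setting in which stress genes can be induced, and its part in the levels below was not tested.

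Values are TPM, a share of reads corrected for transcript length that allows levels of different genes to be set side by side. A gene counted as detected in a cell at 1 TPM or more. Cells had between 2624 and 6946 detected genes, with a median of 4156. The deposited values summed to 1000000 within rounding in 87 cells, called full-total cells and numbered 1 to 91, and to less in the 21 cells numbered from 92, called short-total cells. The study's text says that some cells received spike-in RNA, but not which. All 10 acinar markers (among them Cpa1, Ptf1a and Bhlha15) were detected in every cell, and of 7 endocrine and 8 immune markers at most 2 of each were found in any cell. At most 5 of 7 ductal, 5 of 6 endothelial and 4 of 7 stellate or fibroblast markers were found in a cell.

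Inverted GAA repeats, the recognition units of Hsf1, were found in promoters of both classes. The 250 bases before each RefSeq transcription start (assembly GRCm38.p6) were searched on both strands for GAANNTTC or TTCNNGAA, which are paired inverted units and overlap in longer arrays. Of the 10 genes, 7 had at least 1 entry, and promoters of Hspa8, Hsp90aa1 and Hsp90ab1 were not analysed here. These 7 genes had 10 entries. Paired units were present in 7 of the 10 entries, against 12.8% of all 32851 promoter entries. Some entries hold the same units, as both of Hsph1 do and as Hspd1 and Hspe1 do, so the entries are not independent. They were found in all entries of Hspa1a, Hspa1b, Hspb1, Hsph1 and Hspe1 and in 1 of the 2 of Hspd1, and in neither entry of Dnajb1. The longer array of 3 units, GAANNTTCNNGAA or TTCNNGAANNTTC, was present in 1 entry each of Hspd1 and Hspe1 and in no other of the 10, against 0.466% of all entries (153 entries). A match describes letters and does not show binding. The windows below are printed because they hold these units (capitals). The first pair shows how alike the promoters of Hspa1a and Hspa1b are, at chr17:34972157-34972286 and chr17:34959239-34959368, both on the minus strand.
Hspa1a: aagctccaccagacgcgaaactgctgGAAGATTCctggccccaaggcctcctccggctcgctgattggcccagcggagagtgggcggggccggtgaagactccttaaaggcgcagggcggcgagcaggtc
Hspa1b: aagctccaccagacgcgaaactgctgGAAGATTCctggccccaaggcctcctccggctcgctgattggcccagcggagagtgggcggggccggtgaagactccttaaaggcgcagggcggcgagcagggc
These windows were identical at 129 of 130 bases, and the full upstream stretches at 247 of 250. The Hspb1 window, at chr5:135887789-135887918 on the plus strand, holds 2 separate pairs, starting 117 and 97 bases before the transcription start.
Hspb1: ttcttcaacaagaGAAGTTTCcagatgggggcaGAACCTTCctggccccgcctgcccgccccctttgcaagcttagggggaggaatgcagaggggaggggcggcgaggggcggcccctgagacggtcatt
None of these 3 windows overlapped an annotated exon. Hspd1 and Hspe1 lie head to head on chromosome 1 and share a single array, at chr1:55088053-55088082 (plus strand shown), which also falls in the 5′ UTR exon of an Hspd1 transcript.
Hspd1 and Hspe1: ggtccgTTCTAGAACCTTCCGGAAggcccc
For Hsph1 the unit, at chr5:149636356-149636375 on the minus strand, lies inside an exon of the gene as annotated by GENCODE.
Hsph1: gaatctTTCTCGAAggctcg

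Hspa8, the constitutive cytosolic Hsp70 (Hsc70), was the most abundant of the 10 genes and was present in every cell. It ran from 12.4 to 277 TPM around a median of 41.4 TPM (mean 55.6 ± 43.1, SD over all cells, as throughout, chromosome 9, 40800984 to 40810087 on GRCm38). The quartiles were 26.9 and 61.8 TPM, and a few cells stood far above them, with cell 40 at 277 TPM and cell 88 at 229 TPM.

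Hspa1a, the inducible Hsp70, divided the cells. It was listed at 0 in 45 cells, reached 1 TPM in 51 (47.2%, exact 95% interval 37.5% to 57.1%, counting error only) and 10 TPM in 20. Its median was 0.585 TPM and its highest values were 54.4 TPM in cell 64 and 45.1 TPM in cell 69 (mean 5.31 ± 9.37). The cells thus ranged from none seen to a level above the median of Hspa8. Its neighbour Hspa1b, which encodes nearly the same protein, stayed far lower. Its median was 0.05 TPM and no cell exceeded 2.16 TPM (cell 69), with 12 cells at 1 TPM or more and 53 at 0. Hspa1a was the higher of the pair in 62 cells. The genes are adjacent on chromosome 17 (34969190 to 34972156 and 34956436 to 34959238). Of all windows of 100 bases in the Hspa1b transcript, 49.9% also occur in Hspa1a, so how shared reads were divided between them is uncertain, and the sum of both is the firmer value. That sum was at 1 TPM or more in 52 cells and at 0 in 35. Hspa1a and Hspa1b together made up a median of 1.69% of the TPM of the trio with Hspa8, and at most 44.2%, in a short-total cell.

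Hsp90 in the cytosol is made from Hsp90aa1, the more inducible form, and Hsp90ab1, the steady form, and both were found in every cell. Hsp90aa1 ran from 4.57 to 313 TPM with a median of 24.4 TPM (mean 43 ± 50.1, chromosome 12, 110690605 to 110702728), highest in cells 40 and 60. Hsp90ab1 ran from 8.77 to 121 TPM with a median of 27.1 TPM (mean 32.6 ± 18, chromosome 17, 45567775 to 45573271), highest in cell 62. The mean put Hsp90aa1 first and the median put Hsp90ab1 first: Hsp90aa1 was the higher of the pair in only 51 cells and the lower in 57, but by more where it was. Its share of the pair had a median of 49.3% and ran from 21.1% to 89.2%.

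The Hsp70 co-chaperones in the set, Dnajb1 and Hsph1, were low, while some outside it, such as Bag1 and Dnaja1 below, were higher. Dnajb1 (Hsp40), a J protein that stimulates the ATPase of Hsp70, ran from 0 to 15.7 TPM around a median of 0.865 TPM (mean 1.42 ± 2.30, chromosome 8, 83608193 to 83612653), with 45 cells at 1 TPM or more and 14 at 0. Cells 40 and 88 held 15.7 and 15.5 TPM, and the next cell, cell 54, held 7.16 TPM. Hsph1 (Hsp110), a nucleotide exchange factor for Hsp70, ran from 0 to 8.13 TPM around a median of 0.71 TPM (mean 1.04 ± 1.18, chromosome 5, 149614287 to 149636376), with 41 cells at 1 TPM or more and 9 at 0. At such levels a cell listed at 0 cannot be told from a cell with few transcripts.

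Hspb1 (Hsp25 in the mouse), a small heat shock protein that holds unfolded clients without ATP, was detected in all but 2 cells. It ran from 0 to 247 TPM around a median of 14.2 TPM (mean 21.3 ± 29, chromosome 5, 135887919 to 135889563). The highest value, in cell 88, was far from the next, 98.3 TPM in cell 8, and the 2 cells without it were at 0. In 83 cells Hspb1 was higher than Cryab, another small heat shock protein (7.88 ± 3.61 TPM).

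The mitochondrial chaperonin genes were present in every cell and, together with Hsp90ab1, had the lowest SD relative to the mean of the set. Hspe1 (Hsp10), the lid of the folding chamber, ran from 4.73 to 61.9 TPM around a median of 13.7 TPM (mean 15.9 ± 9.35, chromosome 1, 55088132 to 55091307). Hspd1 (Hsp60), the chamber itself, ran from 1.29 to 18.7 TPM around a median of 4.48 TPM (mean 5.37 ± 3.33, chromosome 1, 55077835 to 55088243). Hspe1 exceeded Hspd1 in all but 3 cells, by a median ratio of 3.21 (range 0.596 to 14). The annotated spans of the genes overlap at their starts, and where no strand is recorded, reads there cannot be assigned to either.

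**Figure D1:**
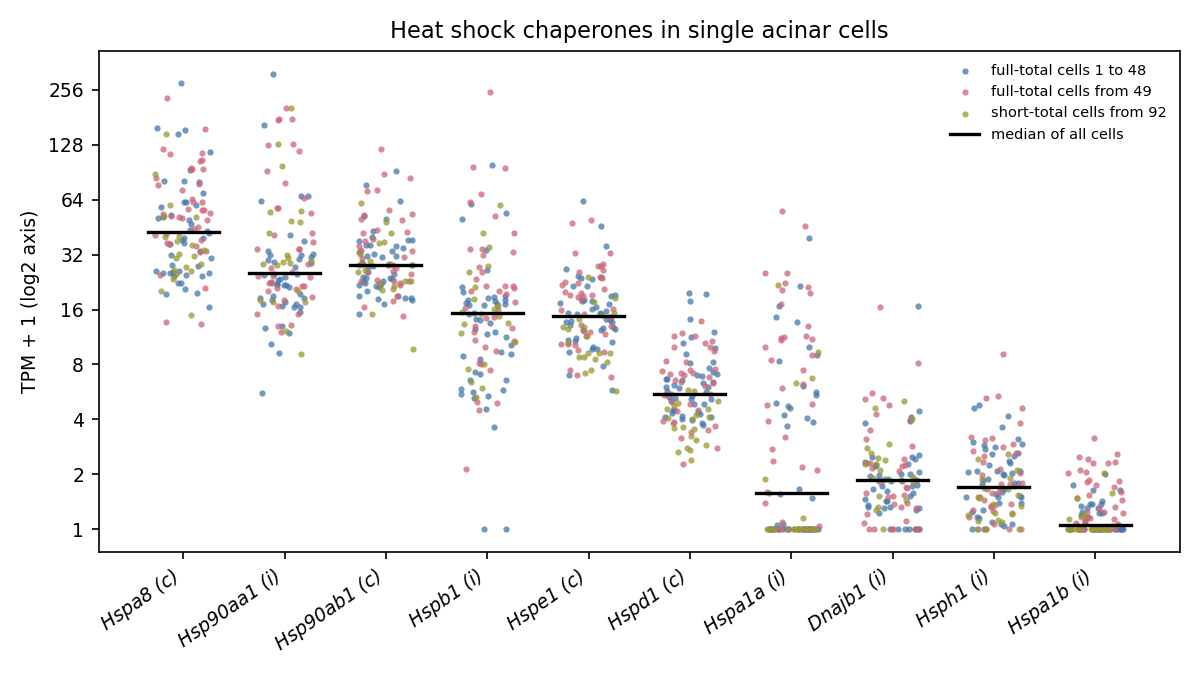
TPM + 1 on a log2 axis (vertical) of each of the 10 genes in order of mean (horizontal), with 1 point per cell coloured by cell set and the median of all cells as a bar, (i) marking inducible and (c) constitutive genes. Hspa1a is spread from cells listed at 0 to 54.4 TPM, while Hspd1, Hspe1 and Hsp90ab1 form compact bands.

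Along the order of mean levels, neighbours mostly overlapped. The difference of adjacent means was below the SD of the difference over cells for every step but that from Hspe1 to Hspd1 (10.6 TPM against an SD of 7.80). Hspd1 and Hspa1a had almost the same mean, 5.37 and 5.31 TPM, but Hspd1 was the higher in 76 cells. Dnajb1 and Hsph1 changed places from cell to cell, with Dnajb1 higher in 54 cells and Hsph1 in 52.

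Set against their relatives in other compartments, the cytosolic genes were not always the highest. Hspa5 (BiP), the Hsp70 of the endoplasmic reticulum (ER), stood at 114 ± 63.4 TPM and exceeded Hspa8 in 96 cells, while Hspa9, the mitochondrial Hsp70, stood at 5.86 ± 3.24 TPM, below Hspa8 in every cell. Hsp90b1 (Grp94), the Hsp90 of the ER, averaged 36.4 ± 19.3 TPM and exceeded Hsp90ab1 in 59 cells, so neither was clearly the higher. Trap1, the mitochondrial Hsp90, averaged 2.52 ± 1.57 TPM and was below Hsp90ab1 in all cells.

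The inducible and constitutive genes were separated by relative spread. The coefficient of variation (CV, SD over mean) over cells lay between 1.13 (Hsph1) and 1.76 (Hspa1a) for the 6 inducible genes and between 0.551 (Hsp90ab1) and 0.776 (Hspa8) for the 4 constitutive genes, with no overlap. CV falls as mean level rises, so the squared CV was also divided by the trend over the 7227 genes detected in at least 10% of cells. On that scale the classes overlapped. Hspb1 stood at 13.1 times the trend, Hsp90aa1 at 12.4, Hspa1a at 10.4, Hspa8 at 6.00, Dnajb1 at 3.44, Hsp90ab1 at 2.51 and Hspe1 at 2.15, and these 7 of the 10 genes passed 2 times the trend, as did 12% of all genes tested. Hsph1 (1.36), Hspd1 (1.30) and Hspa1b (0.596) did not. The call for Hspe1 was lost without its highest cell (1.76 times), and Dnajb1 fell to 1.32 times without cells 40 and 88 together. Without its highest cell, cell 88, Hspb1 fell to 6.65 times the trend, still past the threshold.

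**Figure D2:**
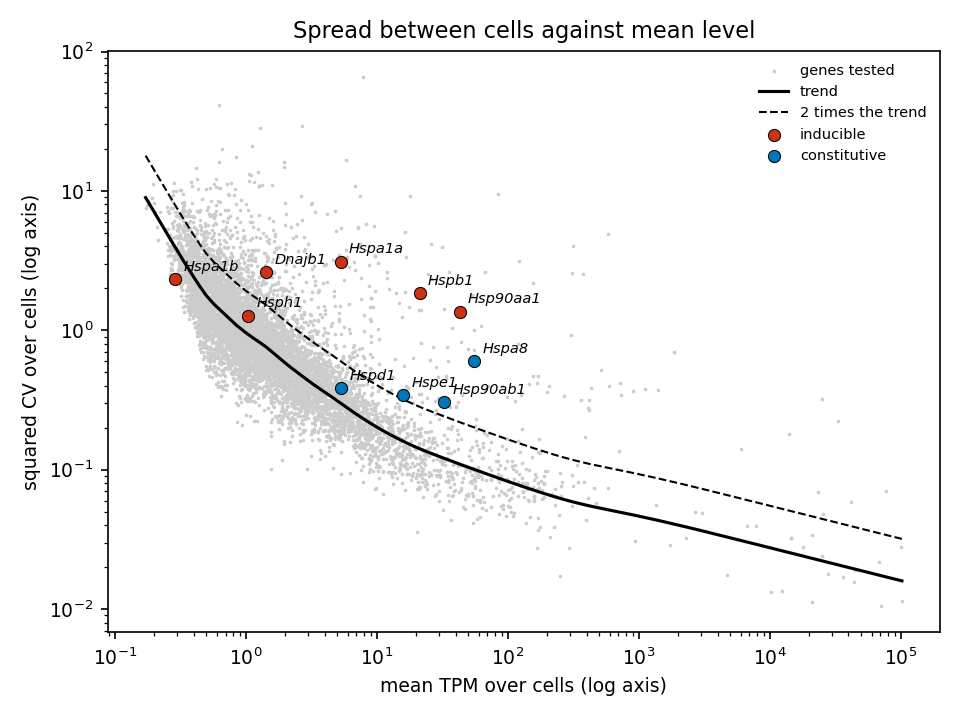
Squared CV over cells (vertical, log axis) against mean TPM (horizontal, log axis) for the 7227 genes tested (grey), with the trend (solid), 2 times the trend (dashed) and the 10 heat shock chaperones in red (inducible) and blue (constitutive). Hspb1, Hsp90aa1, Hspa1a and Hspa8 lie well above the dashed line, and Hspa1b, Hsph1 and Hspd1 lie below it.

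The 10 genes rose and fell together across cells to differing degrees. The median Spearman correlation over cells of log2(TPM + 1) was 0.32 over their 45 pairs and 0.056 over all pairs of the 7227 genes. A correlation of at least 0.3 was reached by 27 of the 45 pairs, against 1.36% of all pairs. Levels bear on this, since genes found in every cell correlate more: among the 805 such genes the median was 0.15 and 15.2% of pairs reached 0.3, and among the 5 chaperones in that class the median was 0.41 and 6 of 10 pairs reached it. All cells share a fixed total and were made by the same procedure, so these values are a description.

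Correlations did not divide the set into an inducible and a constitutive block. The median was 0.30 within the inducible genes (15 pairs), 0.41 within the constitutive genes (6 pairs) and 0.34 between the classes (24 pairs). With Hsph1 and Hsp90aa1 moved to the constitutive class the medians were 0.40, 0.39 and 0.32. The closest pair was Hspa1a with Hspa1b, at 0.69 (Pearson r 0.73, and 0.69 with the 2 cells most distant from the median left out), which share sequence. The next pairs joined the classes: Hsp90aa1 with Hsp90ab1 at 0.56 (r 0.67, then 0.63) and Hspa8 with Hsp90aa1 at 0.55 (r 0.65, then 0.59). Hspb1 stood at 0.50 with each of Hspa1a, Hspa1b and Hsp90aa1, and Hspd1 with Hspe1 at 0.46.

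Hsph1 stood apart from the other inducible genes. Hsph1 correlated with Hspb1 at -0.02, with Dnajb1 at 0.06 and with Hspa1a at 0.11, but with the constitutive Hspd1 at 0.40 and Hspa8 at 0.39. Dnajb1 correlated with Hspd1 at 0.04, with Hspb1 at 0.30 and best with Hsp90aa1, at 0.36. Its median correlation was 0.18 with the other inducible genes and 0.23 with the constitutive genes. Both genes are low, and the precision of their correlations is limited accordingly.

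**Figure D3:**
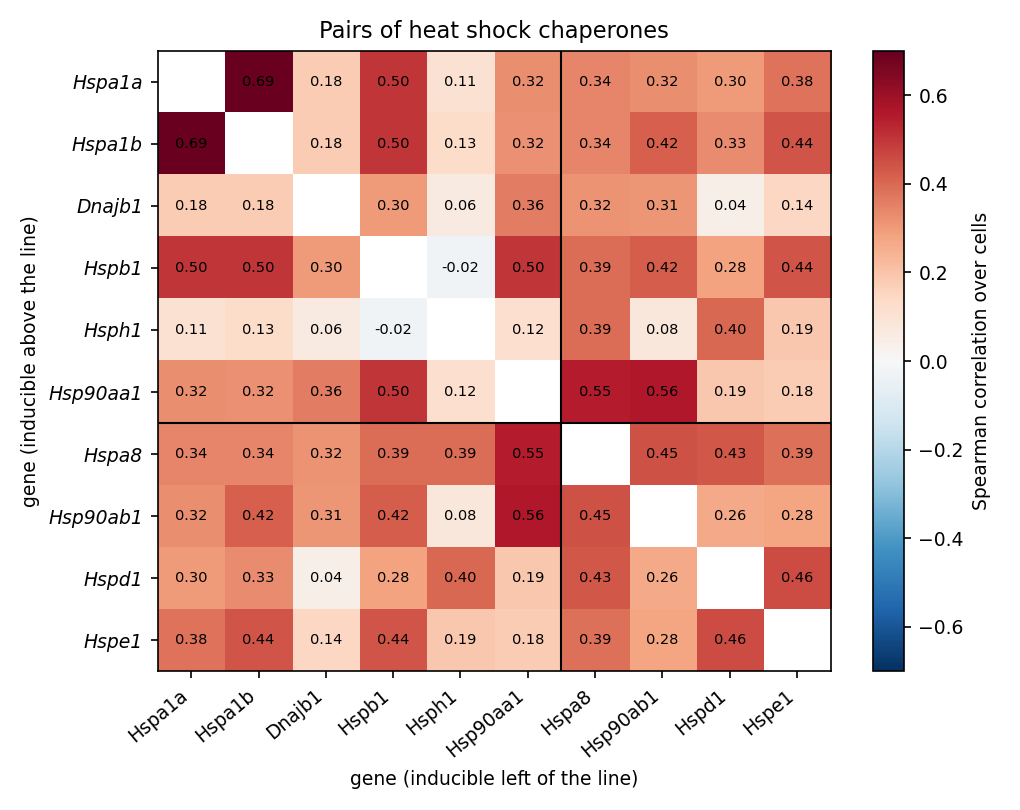
Spearman correlation over all cells (colour and number) for each pair of heat shock chaperones, with lines between the 6 inducible and the 4 constitutive genes. The cells of the grid with the deepest red are Hspa1a with Hspa1b and Hsp90aa1 with both Hsp90ab1 and Hspa8, and the row of Hsph1 is pale among the inducible genes.

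A small number of cells carried most of the high values. For each gene the 11 cells of highest value were marked. In 68 cells no chaperone was marked, in 18 cells 1 was, in 11 cells 2 were and in 1 cell 4 were, while 5 were marked in cells 60, 67 and 72, 6 in cells 8, 39 and 62, and 7 in cells 64 and 69. Cell 40 had 9 and cell 88 all 10. The same marks were not counted over all genes, so these counts have no background. Cell 40 also had the most genes detected of all cells. The sum of the 10 genes was 826 TPM in cell 88 and 814 TPM in cell 40, against a median of 134 TPM and a lowest value of 57.8 TPM.

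The extreme cells did not share one profile. Cell 88 led for Hspb1 (247 TPM) and Hsph1 (8.13 TPM), and cell 40 for Hspa8, Hsp90aa1 and Dnajb1. Cell 39 had the highest Hspd1 (18.7 TPM) and 91 TPM of Hsp90ab1 with Hspa1a and Hspa1b at 0, and cell 64 had the highest Hspa1a with Hsph1 at 0. Cell 40 also had the most genes detected (6946) and held 5 of 6 endothelial markers (sum 69.7 TPM, range over all cells 0 to 69.7) and 4 of 7 ductal markers (sum 315 TPM, range 0 to 353), with no endocrine, stellate or immune marker. Cell 88 had 4616 genes, 0 endothelial markers and 1 ductal marker. Whether cell 40 holds RNA of other cells was not tested. Without cells 31 and 40, which an earlier analysis had doubted, Hsp90aa1 stood at 10.4 times the trend, Hspa8 at 4.93 and Dnajb1 at 2.59, and the median correlation of the 45 pairs was 0.32.

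The genes outside the set whose pattern was most like that of each chaperone differed between chaperones. They were ranked by Spearman correlation over all cells among 5342 genes detected in at least 25% of cells, and the 3 highest were taken for each. For Hsp90aa1 they were Jun (0.55), an immediate-early transcription factor, Ptp4a1 (0.54), a phosphatase, and Btg2 (0.53), an antiproliferative immediate-early gene. For Dnajb1 they were Zfp36 (0.48), which destabilises AU-rich mRNAs, the splicing factor Rbm39 (0.47) and Btg2 (0.47). For Hspb1 they were Hnrnpa1 (0.42), an RNA-binding protein, the stress transcription factor Atf3 (0.40) and Cops9 (0.39), a subunit of the COP9 signalosome.

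Hsph1, Hspd1 and Hspa8 shared Hspa5 among their nearest genes. Hspa5 was the first for Hsph1 (0.56) and Hspa8 (0.57) and the second for Hspd1 (0.55). Hsph1 was also like Hsp90b1 (0.52) and Sel1l (0.49), a part of the ER-associated degradation machinery. Hspd1 was like Rpn1 (0.55), of the oligosaccharyltransferase, and Ssr1 (0.55), of the translocon. Hspa8 was further like Ptp4a1 (0.56) and its own co-chaperone Dnaja1 (0.54).

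Hspe1 was most like the ribosomal protein genes Rps2 (0.53) and Rps3 (0.52) and the cytochrome oxidase subunit Cox5a (0.51). Hsp90ab1 was most like the splicing factors Luc7l3 (0.44) and Sf3b1 (0.43) and the myosin light chain Myl12a (0.42). For Hspa1b all 3 were Reg genes, which encode secreted proteins of the injured or stressed pancreas: Reg3d (0.43), Reg3a (0.41) and Reg2 (0.40). For Hspa1a they were the RNA-binding protein gene Celf1 (0.44), Reg3d (0.44) and Safb2 (0.38). Within the set, Hspa1a and Hspa1b were nearest to each other, as were Hsp90aa1 and Hsp90ab1.

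Scores of whole gene lists (mean z-scores of log2(TPM + 1) over the genes of a list) were compared with the chaperones in the same way. The score of 20 immediate-early genes correlated with Hsp90aa1 at 0.56, Dnajb1 at 0.45 and Hspb1 at 0.36, with Hspa1a at 0.23, and with Hspd1 and Hsph1 at -0.12 and -0.20, against a median of 0.04 over all other genes. The score of 15 ER chaperones correlated with Hspd1 at 0.60, Hsph1 at 0.52, Hspa8 at 0.49 and Hspe1 at 0.39, and with Dnajb1 at 0.01 (other genes 0.13). With the 8 subunits of TRiC, the cytosolic chaperonin, Hspd1 stood at 0.56, Hspa8 at 0.45 and Hsph1 at 0.42 (other genes 0.15). With 10 Hsp90 co-chaperones Hspd1 stood at 0.50 and Hspa8 at 0.46, where Hsp90aa1 itself stood at 0.15, the median of other genes. The score of 6 Reg genes correlated at 0.40 with both Hspa1a and Hspa1b (other genes 0.03), and that of 76 ribosomal protein genes at 0.49 with Hspe1 (other genes 0.06). The Reg and ribosomal lists were added after values were seen. They hold genes already named as nearest to these chaperones, so their scores are no separate support. The same holds for the immediate-early list, with Jun, Btg2, Zfp36 and Atf3, and for the ER list, with Hspa5 and Hsp90b1.

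Scaling and the cells included moved some of these values. Hspd1 also correlated with the number of genes detected per cell, at 0.47. After median-of-ratios scaling its correlation with the ER score was 0.41 (other genes 0.01). That of Hspe1 with the ribosomal score was then 0.32 (other genes -0.06). Under that scaling Hspd1 stood at 0.32 with TRiC (other genes 0.04), below Hspa8 (0.41) and Hsph1 (0.37). With the Hsp90 co-chaperones Hspd1 stood at 0.25 (other genes 0.03), below Hspa8 (0.38). The background was thus lower as well. In the full-total cells the ER score correlated with both Hspd1 and Hspa8 at 0.50, while within the 21 short-total cells it correlated with Hspd1 at -0.08 and with Hspa8 at -0.04. The immediate-early score with Hsp90aa1 stood at 0.53 in the full-total cells and 0.50 in the short-total cells. With Hspd1 that score stood at 0.06 and -0.36, and with Hsph1 at -0.16 and 0.16. The negative sign over all cells thus held in only 1 of the sets for each of these genes.

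**Figure D4:**
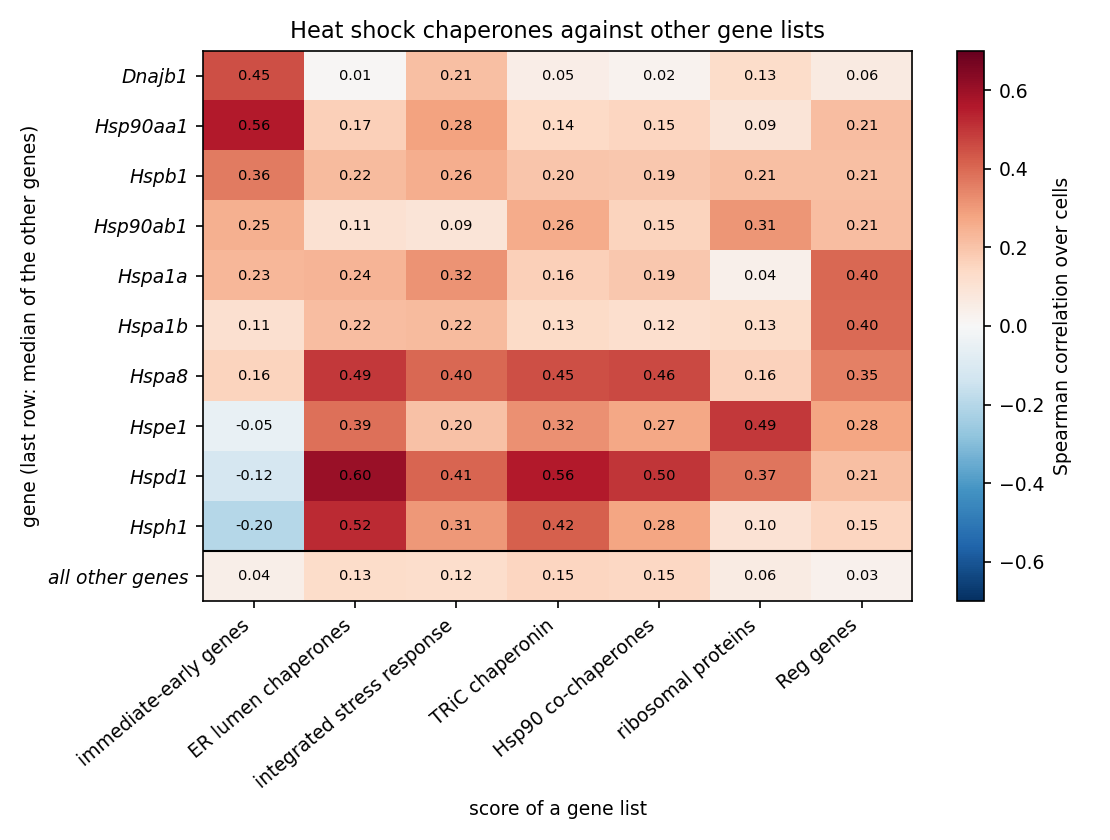
Spearman correlation over all cells (colour and number) of each heat shock chaperone with the scores of 7 other gene lists, and the median over all other genes in the last row. Hsp90aa1 and Dnajb1 are highest with the immediate-early genes, and Hspd1, Hsph1 and Hspa8 with the ER chaperones.

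Of 69 other genes of the chaperone network, 68 had a row in the table and 52 entered the comparison with the trend. Of these 52, 4 passed 2 times the trend, a share not far from the 12% of all genes tested. They included the J protein genes Dnaja1 (4.26 times) and Dnajb4 (2.47 times) and Hspb11 (2.13 times). Hspb11 was listed with the small heat shock proteins, and whether it acts as a chaperone was not tested. Dnajb4 and Hspb11 were named after their values were seen. Dnaja1, at 7.99 ± 7.92 TPM, correlated with Hspa8 at 0.54 and Hsp90aa1 at 0.50. Beside the same 12% of all genes, 17 of 20 immediate-early genes tested were past the threshold, 5 of 15 ER chaperones and 4 of 7 integrated stress response genes.

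The transcript of Hsf1, the transcription factor described above, was low. Hsf1 averaged 0.717 ± 0.706 TPM and reached 1 TPM in 32 cells, Hsf2 did so in 1 cell, and Hsbp1, which binds Hsf1, stood at 9.76 ± 3.63 TPM with a lowest value of 0.9 TPM. Hsf1 correlated with the 10 chaperones at between 0.04 (Hsph1) and 0.23 (Hsp90ab1). The chaperones' median correlations with all genes tested lay between 0.04 (Dnajb1) and 0.13 (Hspd1). Transcript level does not show the activity of Hsf1, which was not measured. The Hsp70 adaptors Bag1 (14.7 ± 4.60 TPM) and Stub1 (7.38 ± 3.28 TPM), the Hsp90 co-chaperones Fkbp4 (15.6 ± 5.48 TPM) and Ahsa1 (4.98 ± 2.68 TPM), and the TRiC subunits Cct5 (13.2 ± 4.55 TPM) and Tcp1 (10.2 ± 4.19 TPM) all had squared CVs below the trend. Of the other lists, Hspa13 averaged 2.78 TPM, Dnajc7 5.00 TPM, Hspb8 2.35 TPM, and the mitochondrial proteases Htra2 and Clpp 5.88 and 5.25 TPM. Of the 68 measured genes, 9 reached 1 TPM in no cell.

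Levels also differed between sets of cells that the labels do not explain. These sets are not groups of the study, and whether they are animals, days or plates cannot be told apart. In short-total cells the median of Hspa1a was 0 TPM against 1.74 TPM in full-total cells, that of Hspa8 31.2 against 48.7, of Hspd1 3.00 against 5.20 and of Hspe1 9.54 against 14.6. Hspb1 (14.2 against 14.3) and Hsp90ab1 (27.1 in both) were level, and Hsp90aa1 (28.4 against 23.3) and Dnajb1 (1.12 against 0.81) were higher in short-total cells. As a difference of medians of log2(TPM + 1), Hspa1a stood at -1.45, Hspd1 at -0.63, Hspa8 at -0.63 and Hspe1 at -0.57.

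These 4 chaperones were lower by 0.5 or more in short-total cells, as were 10.3% of all genes tested, and 0 were higher by as much (1.22% of all genes). The median over the 10 was -0.26 and over all genes -0.15. Median-of-ratios scaling moved the median of all genes to -0.0020. The differences were then -1.50 for Hspa1a, -0.42 for Hspd1, -0.31 for Hspe1 and -0.27 for Hspa8, while Hsp90aa1 stood at 0.66 and Hspb1 and Hsp90ab1 turned from about 0 to 0.23 and 0.20.

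Full-total cells numbered 49 to 91 (40 cells) and 1 to 48 (47 cells) differed most in Hspa1a. Its median was 5.10 TPM in the later cells and 0 TPM in the earlier, a difference of 2.61 on the log2(TPM + 1) scale, and Hspa1a and Hspa1b together reached 1 TPM in 29 of 40 later and 18 of 47 earlier cells, and in 5 of 21 short-total cells. Hspb1 followed with 18.7 against 12.5 TPM (0.55). These 2 chaperones were higher by 0.5 or more, as were 1.05% of all genes, and 0 were lower by as much (1.74% of all genes). Hspa8 stood just under that size (0.50, with medians of 54.3 and 38.2 TPM) and Hsph1 at -0.12. The median over the 10 was 0.31, against -0.03 over all genes. The division after cell 48 had been chosen from Reg gene values in an earlier analysis, and the Reg score correlates with Hspa1a, as given above, so this difference is a description.

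Hspa8 changed along the cell numbers. In consecutive blocks of 12 numbers, a division made after its values were seen, the median was 25 TPM in cells 1 to 12, 24.2 in 13 to 24, 59.9 in 25 to 36 and 49.3 in 37 to 48. It then lay between 42 and 55.4 TPM up to number 96, was 34 TPM in the 12 cells that follow and 26.9 TPM in the last 4. All 11 cells of the second block lay between 18.5 and 37.6 TPM, and all 12 of the fourth between 35.5 and 277 TPM. The first block ran from 19.6 to 145 TPM and the third from 15.4 to 115 TPM, so ranges overlapped across the step. Hsp90ab1 showed no such step, with medians of 24.7, 27.1, 31.9 and 24.6 TPM in the first 4 blocks. Hsp90aa1 was highest in the block of cells 61 to 72, at 78.3 TPM against 20.0 to 39 TPM in the others, and so were Hspa1a (10.1 TPM), Dnajb1 (2.99 TPM) and Hsp90ab1 (41.1 TPM). The median number of genes detected ran from 4027 to 4386 over the first 4 blocks and was 4271 in cells 61 to 72.

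**Figure D5:**
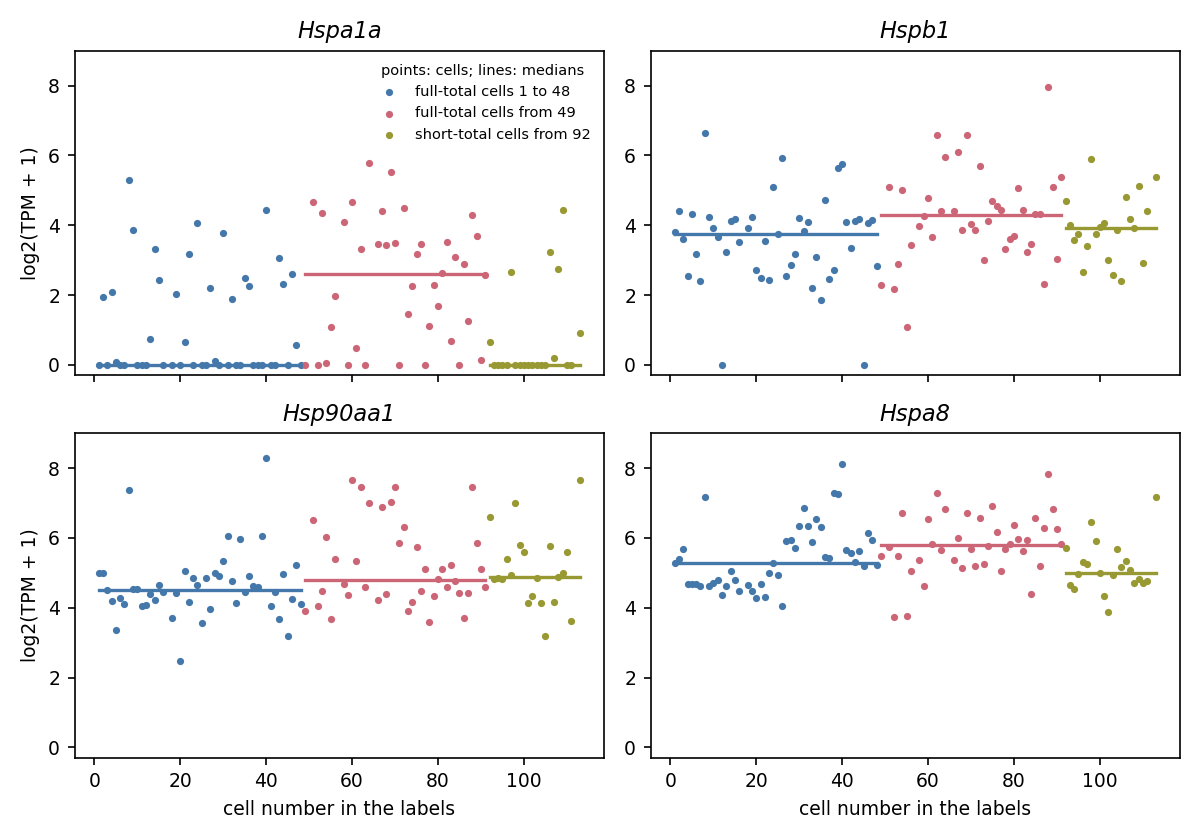
log2(TPM + 1) (vertical) of Hspa1a, Hspb1, Hsp90aa1 and Hspa8 in each cell (points) against its number in the labels (horizontal), coloured by cell set, with the median of each set as a line. Hspa1a is at or near 0 in most cells up to number 48 and above 92 and scattered higher between, and Hspa8 is low and even in most cells up to number 24.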

How the data were processed

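The authors deposited 1 table of TPM, taken as TPM from its values, which sum to about 1000000 for most of the 108 cells. Per the submitters' processing notes, the tools and build were RSEM 1.2.21, STAR 2.4.2a, mm10 and edgeR, whose roles are not given. Depth in reads cannot be recovered from TPM, and the limits of detection could not be set per cell. Values are rounded to 2 decimals. How reads shared by near-identical transcripts were divided is not given in the sources used here, which leaves Hspa1a against Hspa1b uncertain. Of the 100-base windows in the transcripts, those shared with other genes made up 63.4% for Hspa8, 47.5% for Hsp90aa1, 42.7% for Hspb1, 26.9% for Hspd1 and 22.4% for Hspe1. The sharing genes outside the set averaged at most 0.153 TPM where measured.

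Columns were matched to cells by cell number and 44548 of 45195 rows to symbols. The computations took in the 7227 genes that reached 1 TPM in 11 or more cells (10%). Squared CVs were set against a lowess trend on mean TPM (span 0.3). Scores are mean z-scores of log2(TPM + 1), pseudocount 1. Promoter sequences are RefSeq's on GRCm38.p6, and gene spans and exons are from GENCODE M21 on GRCm38. Named genes were all 10 chaperones, the 2 of highest mean TPM in each pathway list and the 3 genes most like each chaperone. Of the listed genes, Hspa14 was not matched, and the results of 1 list are not reported here. The genes and lists were chosen with earlier results of these data known, and the ribosomal protein and Reg lists were added after values were seen. Alternatives covered pseudocounts, scalings, filters, thresholds, cell sets and left-out cells. The scripts used Python 3.11.15, numpy 2.4.6, pandas 2.3.3, scipy 1.17.1 and statsmodels 0.14.6 and were tested on simulated data.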

Additional observations from a re-analysis of the deposited data

How the results depend on the processing

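Under the 14 alternatives tried for all 45 pairs, the median correlation of the heat shock chaperones stayed positive, between 0.23 (short-total cells) and 0.45 (pseudocount 10, Pearson). That among the inducible genes ranged from 0.23 to 0.49 and that between the classes from 0.23 to 0.42. Among the constitutive genes it was 0.51 by Pearson with pseudocount 10 and 0.13 in the 21 short-total cells alone, against 0.41. The cause was not tested. Between 5 and 7 chaperones varied above the trend: 5 at 3 times the trend, 5 without cells 40 and 88 (an alternative chosen after seeing the data), 6 with median-of-ratios scaling and 6 without each gene's highest cell. The median difference between short-total and full-total cells, -0.26, was 0 when only cells numbered 1 to 48 were the reference and -0.39 with those from 49. The median difference between full-total cells from 49 and up to 48 lay between 0.31 and 0.36, also in alternatives chosen after seeing the data. Detection counts depend on the level chosen: Hspa1a was above 0 in 63 cells and at 5 TPM in 33, Dnajb1 in 94 and 3, Hsph1 in 99 and 1, Hspa1b in 55 and 0, and Hspd1 reached 5 TPM in 47. No paired analysis was possible because all cells form 1 group and the results come from no test. Unknown depth limits every value near 0, and cells of unnamed animals do not show how far mice differ.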

Other observations

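Some single cells had uneven chaperone profiles. The short-total cell of highest number held 202 TPM of Hsp90aa1 with 24.6 TPM of Hsp90ab1, so that Hsp90aa1 made up 89.2% of the pair, the highest share of all cells. It held 145 TPM of Hspa8 but only 0.88 TPM of Hspa1a and 2.23 TPM of Hspd1. The same cell had the highest value of all cells for Dnaja1 (49.3 TPM), the J protein partner of Hspa8, and for Jun (129 TPM). Cell 92, also short-total, had the highest ratio of Hspe1 to Hspd1, 14, from 23.2 and 1.66 TPM. Another short-total cell had the highest share of Hspa1a and Hspa1b in the Hsp70 trio, 44.2%, at 21.7 TPM for the sum of both. These cells were chosen after their values were seen.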
